A study of Mus musculus and Rattus norvegicus with 53 samples.

Results

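Chemokine ligands and their receptors were followed through Schwann cells (SCs) sorted from intact mouse sciatic nerves (iSCs), from the distal stump of a cut nerve (dSCs) and from the bridge, the tissue that forms between the cut ends (bSCs). The genes were chosen by symbol alone: every listed gene named Ccl, Cxcl, Ccr or Cxcr with a number, together with Cx3cl1 and Cx3cr1. This gave 55 of 24016 listed genes, made up of 24 CC ligands, 13 CXC ligands, 10 CC receptors, 6 CXC receptors, the CX3C ligand and the CX3C receptor.

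Chemokines are small secreted proteins that guide cells bearing the matching G protein-coupled receptor. CC ligands such as Ccl2 draw monocytes and macrophages, the CXC ligands that bind Cxcr2 draw neutrophils, and Cxcl12 and Cxcl13 guide many other cells, lymphocytes among them. After a nerve is cut, denervated SCs of the distal stump shed their myelin program and, together with recruited macrophages, clear myelin debris, and Ccl2 is a known SC signal to macrophages in this setting.

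All cells came from male and female tdTom SC mice of 6 to 8 weeks, which carry P0A-Cre, a Cre active in the Schwann cell lineage, and a Rosa26 allele that gives red tdTomato protein after Cre has acted; Cre does not reach every SC, and sorting for tdTomato then sets what each library holds. In the pooled experiment, nerves of 3 mice made up each library, with 4 libraries each of contralateral intact nerve, distal stump and bridge, all 6 days after transection. In the single-nerve time course, each of 35 libraries came from the nerve of 1 mouse: 5 held intact nerve, 12 held bSCs (3 libraries each for days 4, 6, 8 and 10) and 18 held dSCs (3 libraries each for the same days and also for days 1 and 2). Each library had 9240883 to 22617054 reads on genes. Values below are CPM, read counts set to 1 common total and adjusted with TMM factors.

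Several libraries need a word before the results. The dSC and bSC libraries of animal 19, both of day 4, were almost alike: Pearson's r of their log2 CPM across genes was 0.997, against 0.946 for the next most similar of the 595 pairs of single-nerve libraries, and chi-square per degree of freedom between their counts was 3.78, against at least 42.48 between replicates and at most 1.276 between lanes of a library. Results that change without both are given both ways. The iSC library of pool 5 stood apart from the other intact pools, and 4 single-nerve libraries, among them 2 of intact nerve, had only 10042 to 11138 genes with a count, against up to 15815 elsewhere. The bSC library of day 8, replicate 2, had a mean correlation of 0.832 with the dSC libraries of days 4 to 10 and 0.785 with the other bSC libraries. Replicates 0 and 1 of day 4 (0.835 against 0.822, 0.815 against 0.773) and replicate 1 of day 6 (0.811 against 0.805) were also nearer to dSCs, by less.

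Marker genes of other cells were present in the sorted material and moved with injury. The summed CPM of 14 measured macrophage and monocyte markers was 263 to 1576 in intact pools 1, 2 and 4 and 6435 in intact pool 5, 10867 to 18030 in the dSC pools and 2633 to 8465 in the bSC pools, with 0 of the 14 at zero in any of these groups. In single nerves the same sum was 305 to 1392 in iSCs, 3328 to 6876 in dSCs of days 1 and 2, 2675 to 14180 in dSCs of days 4 to 10 and 1065 to 14894 in bSCs. Fibroblast markers (8 genes) summed to between 10943 and 59919 CPM in every library, neutrophil markers (8 genes) to at most 104 CPM, with Camp, Ngp and Ltf at 0 in dSC pools and in dSCs and bSCs of days 4 to 10, and T, NK and B lymphocyte markers (10 genes) to at most 45.1 CPM. Schwann cell markers (12 genes) were detected in every group and summed to 27807 to 69921 CPM in intact pools, 2006 to 7001 in dSC pools and 2147 to 5871 in bSC pools. In such bulk material, fewer cells of a type and less RNA per cell cannot be told apart, and the part that macrophage, fibroblast or mast cell RNA has in the levels below was not tested.

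**Figure D1:**
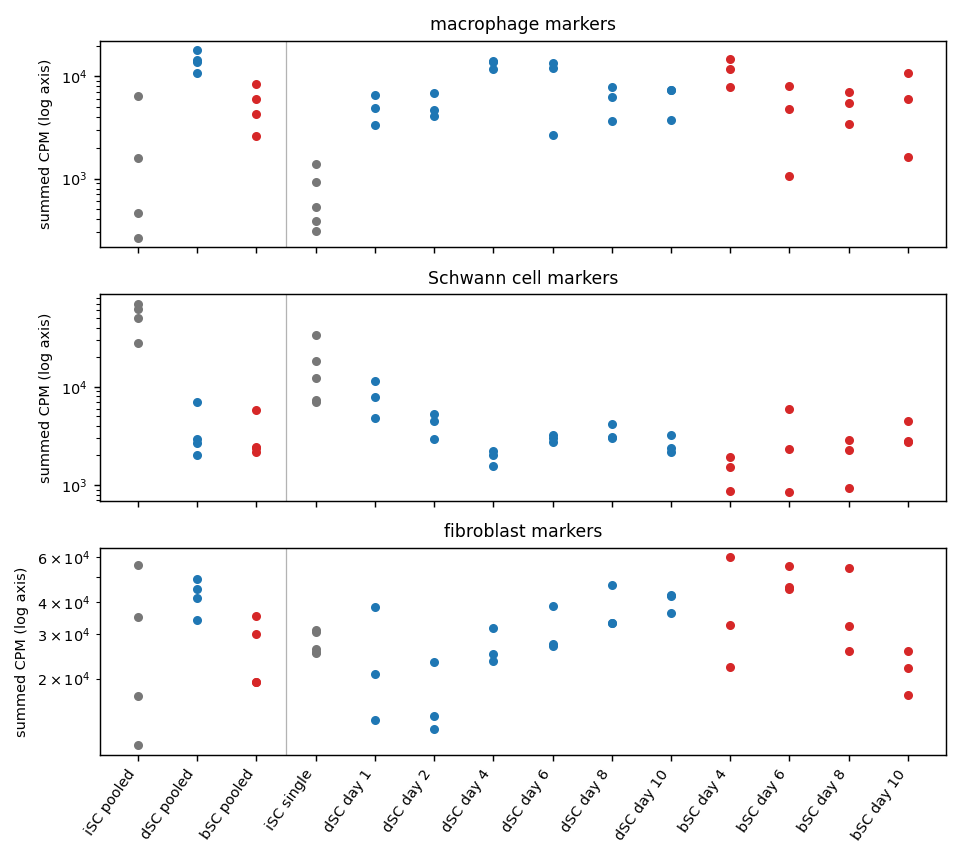
Summed CPM (log axis) of macrophage, Schwann cell and fibroblast marker genes in each library (1 point per library), with intact libraries in grey, dSCs in blue and bSCs in red; groups are along the x axis, pooled nerves left of the line. Macrophage sums of dSC pools (10867 to 18030 CPM) lie above those of bSC pools (2633 to 8465 CPM), and the intact pool at 6435 CPM lies far above the other 3.

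Of the 55 genes, 9 had no read in any of the 47 mouse libraries: Ccl1, Ccl20, Ccl21a, Ccl21b, Ccl21c, Ccl27b, Ccl28, Ccr4 and Ccr8. The Ccl21 and Ccl27 genes have near-identical copies whose reads may have been split or lost in counting, so their zeros and the value of Ccl27a are uncertain. A further 8 genes stayed under the filter on low counts in both experiments, with no more than 175 reads each over all libraries. The remaining 38 were tested in the single nerves, and 32 of them also in the pooled nerves. Per kilobase of exon, Ccl8 and Ccl11 had the highest mean levels of dSC pools (1203 and 805 CPM per kb), Ccl11 that of intact pools (363 CPM per kb) and Ccl8 that of bSC pools (314 CPM per kb).

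Most of the CC ligands described here lie side by side. In the mouse genome build NCBIM37 (mm9), 11 of the 54 genes with a position fall between chr11:81849073 and chr11:83478185, among them Ccl2 (chr11:81849073-81850955), Ccl7 (chr11:81859214-81861027), Ccl11 (chr11:81871325-81876457), Ccl12 (chr11:81915347-81916902) and Ccl8 (chr11:81928687-81930301), all on the forward strand. Cxcl1, Cxcl2, Cxcl3 and Cxcl5 lie close together on chromosome 5.

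NF-κB is a textbook inducer of many chemokine genes, the Cxcr2 ligands among them, and promoters from RefSeq (GRCm38.p6; 250 bases before to 50 bases after the start of transcription) were searched on both strands for the NF-κB consensus site. Promoters of 39 of the 55 genes were in the table. Those not searched included Ccl2, Ccl4, Ccl7, Ccl11, Ccl24, Cxcl5, Cxcl11 and Cxcl16. A match stood in 9 of their 46 promoters, against 4.51% of all 32851 promoters of this length. The genes with a match were Cxcl1, Cxcl2, Cxcl3, Cxcl10, Ccl9, Ccl20, Ccl27a, Ccr3 and Ccr6. The 170 bases before the start are shown for the Cxcr2 ligands with a match, for Cxcl10, which carries 2 separate matches, and for Cxcl14, which was called in early dSCs (below) and has none in this window. Capitals mark the matches, and each sequence is written 5′ to 3′ along the gene.
Cxcl1, chr5:90891075-90891244, forward strand: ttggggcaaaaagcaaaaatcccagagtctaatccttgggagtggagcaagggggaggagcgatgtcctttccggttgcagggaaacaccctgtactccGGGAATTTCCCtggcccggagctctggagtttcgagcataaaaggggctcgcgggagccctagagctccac
Cxcl2, chr5:90903729-90903898, forward strand: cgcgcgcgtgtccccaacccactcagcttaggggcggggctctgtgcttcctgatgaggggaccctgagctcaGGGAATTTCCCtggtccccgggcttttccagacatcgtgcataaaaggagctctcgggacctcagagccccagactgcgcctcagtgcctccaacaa
Cxcl3, chr5:90785931-90786100, forward strand: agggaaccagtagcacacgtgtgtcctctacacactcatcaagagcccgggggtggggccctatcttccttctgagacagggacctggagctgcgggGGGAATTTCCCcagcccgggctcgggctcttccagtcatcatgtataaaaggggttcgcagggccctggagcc
Cxcl10, chr5:92348890-92349059, reverse strand: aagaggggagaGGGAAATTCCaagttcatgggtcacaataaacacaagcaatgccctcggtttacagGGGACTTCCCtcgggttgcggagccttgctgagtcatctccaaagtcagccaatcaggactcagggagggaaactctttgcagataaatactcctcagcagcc
Cxcl14, chr13:56296552-56296721, reverse strand: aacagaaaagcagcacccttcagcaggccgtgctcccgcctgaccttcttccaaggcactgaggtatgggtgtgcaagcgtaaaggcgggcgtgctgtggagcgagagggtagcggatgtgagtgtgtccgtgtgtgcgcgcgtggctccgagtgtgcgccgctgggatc
The same 11 letters, GGGAATTTCCC, occurred in Cxcl1, Cxcl2 and Cxcl3, starting 71, 97 and 73 bases before the start. A match is a description of the letters only.

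With 4 pools a group, 3 questions could be asked of the genes: which differed between distal stump and intact nerve, which between bridge and intact nerve, and which between the regions of the injured nerve. All 12 pooled libraries entered 1 fit for the quasi-likelihood test of edgeR, and a gene was called at a Benjamini-Hochberg adjusted p under 0.05 over all 13751 genes tested. In dSCs against iSCs, 2 of 32 genes were called, both higher in dSCs (6.25%, against 2.63% of all genes tested), and 0 were lower (2.69% of all genes). In bSCs against iSCs, 1 was higher (7.24% of all genes) and 2 were lower (7.46% of all genes), shares below those of all genes. In bSCs against dSCs, 4 were lower (3.11% of all genes) and 0 were higher (2.31% of all genes). The median log2 fold change over the 32 genes was 1.19, 0.15 and -0.85 in that order, next to -0.02, -0.16 and -0.07 over all genes tested, and the pooled comparisons share their libraries with one another. Genes whose libraries did not overlap were 9 of 32 lower in bSCs than dSCs, where 8.62% of all genes were so placed, and 0 higher, where 6.78% were.

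**Figure D2:**
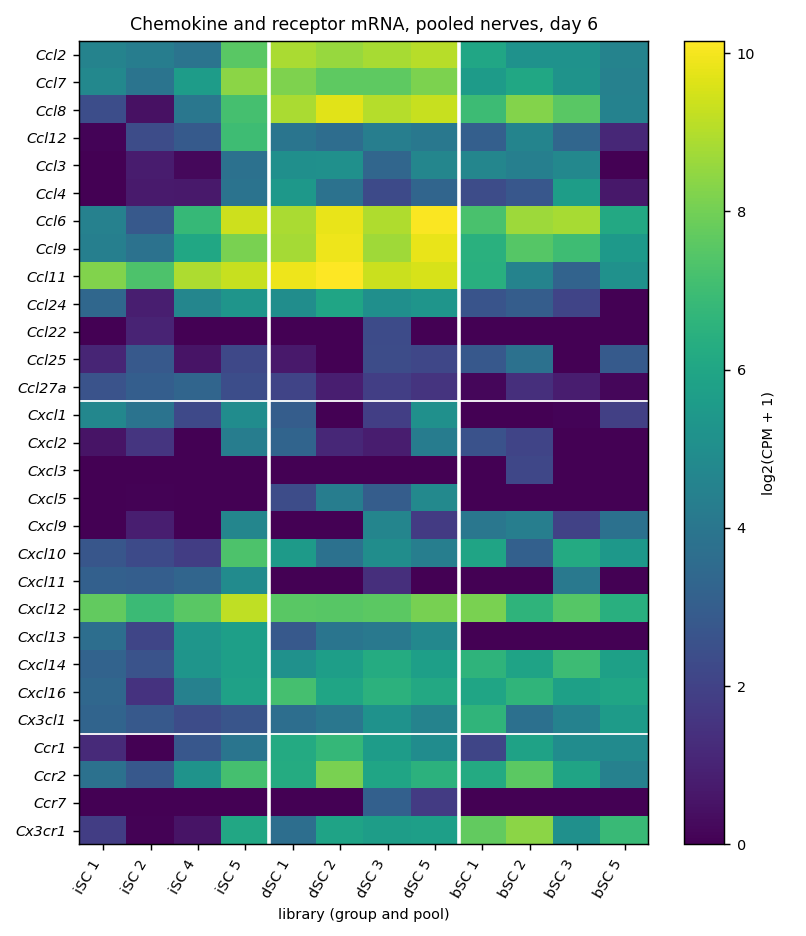
Heat map of log2(CPM + 1) for the named genes (rows: CC ligands, then CXC and CX3C ligands, then receptors) in the 12 pooled-nerve libraries (columns: iSC, dSC and bSC with their pool number). The dSC columns are brightest for Ccl2, Ccl6, Ccl8, Ccl9 and Ccl11, intact pool 5 is brighter than intact pools 1, 2 and 4 for most CC ligands, and Cxcl13 and Cxcl5 are at 0 in all 4 bSC pools.

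Ccl2, the main ligand of Ccr2 and a strong attractant of monocytes, was high in dSCs at day 6 and not in bSCs. Its level was 464, 385, 455 and 537 CPM in dSC pools 1, 2, 3 and 5. In bSC pools of the same numbers it was 64, 35, 35.5 and 22.5 CPM, and in intact pools 1, 2, 4 and 5 it was 22.1, 19, 14 and 189 CPM. Every dSC pool was above every library of the other groups, and bSC and iSC pools overlapped. Ccl2 rose in dSCs against iSCs by a log2 fold change of 2.91 ± 0.73 (SE, edgeR adjusted p = 0.0364) and was lower in bSCs than in dSCs (-3.55 ± 0.75, adjusted p = 0.019). Each edgeR SE printed is the size of the log2 fold change divided by the square root of the F statistic of its test. It is thus derived from the test and is no separate estimate of the spread. With pools that share animals as a block, the first call was lost (3.13 ± 0.82, adjusted p = 0.0972) and the second was kept (adjusted p = 0.0465). The first was also lost without any 1 of the dSC pools or of intact pools 1, 2 and 4 (adjusted p = 0.0612 to 0.105), and the second without bSC pool 3 or 5 (0.0512 and 0.0543). Without intact pool 5 the rise was 4.67 ± 0.40 (adjusted p = 1.67e-04).

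Ccl7, Ccl8 and Ccl12, which lie beside Ccl2, were called in none of the pooled comparisons in edgeR with all 12 libraries. Ccl7 was at 295, 200, 196 and 286 CPM in dSC pools, 47, 64.6, 36.2 and 21.3 CPM in bSC pools and 26, 13.9, 47.6 and 332 CPM in intact pools, so that bSC and dSC libraries did not overlap but intact pool 5 exceeded every dSC pool. The difference between bSCs and dSCs was -2.53 ± 0.79 on the log2 scale (adjusted p = 0.0789) and passed in DESeq2 (0.00699) and among libraries deposited as lane pairs (0.0327), where dSCs against iSCs passed too (0.00921). Ccl8 was between 468 and 834 CPM in dSC pools, between 21.6 and 307 CPM in bSC pools and between 0.356 and 144 CPM in intact pools, and did not pass in any of the 3 comparisons (adjusted p = 0.1 for dSCs against iSCs, 6.57 ± 1.18 with an adjusted p = 0.00554 without intact pool 5). DESeq2 called Ccl8 in dSCs against iSCs (adjusted p = 0.0179), and lane pairs alone gave calls of dSCs (8.20 ± 1.52, adjusted p = 0.0189) and of bSCs (6.12 ± 1.38, 0.0298) against iSCs. Ccl12, at 11.3 to 19.5 CPM in dSC pools and 1.21 to 23.1 CPM in bSC pools, overlapped between all groups.

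Ccl11 (eotaxin, the attractant of eosinophils through Ccr3) was the CC ligand with the largest called difference between bSC and dSC pools. It was at 301, 157, 485 and 627 CPM in intact pools, 958, 1140, 648 and 738 CPM in dSC pools and 85, 22.2, 8.33 and 34.3 CPM in bSC pools. No library of the bridge reached the lowest library of either other group. In log2 fold changes, Ccl11 was lower in bSCs against dSCs (-4.54 ± 0.65, adjusted p = 0.00403) and against iSCs (-3.39 ± 0.62, adjusted p = 0.00286), and both calls held under every alternative run. In dSCs it was not called against iSCs (1.15 ± 0.57, adjusted p = 0.35), although the libraries did not overlap. Of the 8 fibroblast markers, 2 were called between bSC and dSC pools, both lower in bSCs. They were Dcn (1649 against 12090 CPM, adjusted p = 0.00917) and Lum (667 against 6324 CPM, adjusted p = 0.00925). In single nerves, Dcn alone of the list was called between bSCs and dSCs, again lower in bSCs (-1.15 ± 0.21). Against iSCs, Dcn was lower in bSCs of single nerves (-1.95 ± 0.25). Col1a1 and Col1a2 were called higher there (2.24 ± 0.66 and 1.57 ± 0.36). The part of fibroblast RNA in the Ccl11 difference was not tested. Ccr3, the receptor of Ccl11, had a count in only 2 of the 12 pooled libraries, at no more than 3.62 CPM.

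The CC ligands Ccl3, Ccl4, Ccl6 and Ccl9, which draw macrophages among other cells, were called in none of the pooled comparisons in edgeR with all 12 libraries. Ccl6 was between 462 and 1081 CPM in dSC pools, 69.9 and 452 CPM in bSC pools and 6.1 and 669 CPM in intact pools, and Ccl9 was between 416 and 945, 42.7 and 176, and 13.3 and 279 CPM in the same order. For both, bSC and dSC pools did not overlap, yet the tests did not pass (adjusted p = 0.464 for Ccl6 and 0.074 for Ccl9). Ccl9 missed the threshold also in dSCs against iSCs (2.83 ± 0.82, adjusted p = 0.0644). DESeq2 called Ccl9 in both comparisons (adjusted p = 0.00398 and 0.00206). Among libraries deposited as lane pairs, edgeR called Ccl9 in all 3 comparisons (adjusted p = 0.00615 to 0.04) and Ccl6 higher in dSCs and in bSCs than in iSCs (0.0125 and 0.0289). Ccl3 and Ccl4 stayed under 50 CPM in every pooled library and overlapped between groups, and Ccl24, another Ccr3 ligand, was at 30.9 to 62 CPM in dSC pools and 0 to 7.02 CPM in bSC pools (-3.42 ± 1.24, adjusted p = 0.12 in edgeR and 0.018 in DESeq2).

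**Figure D3:**
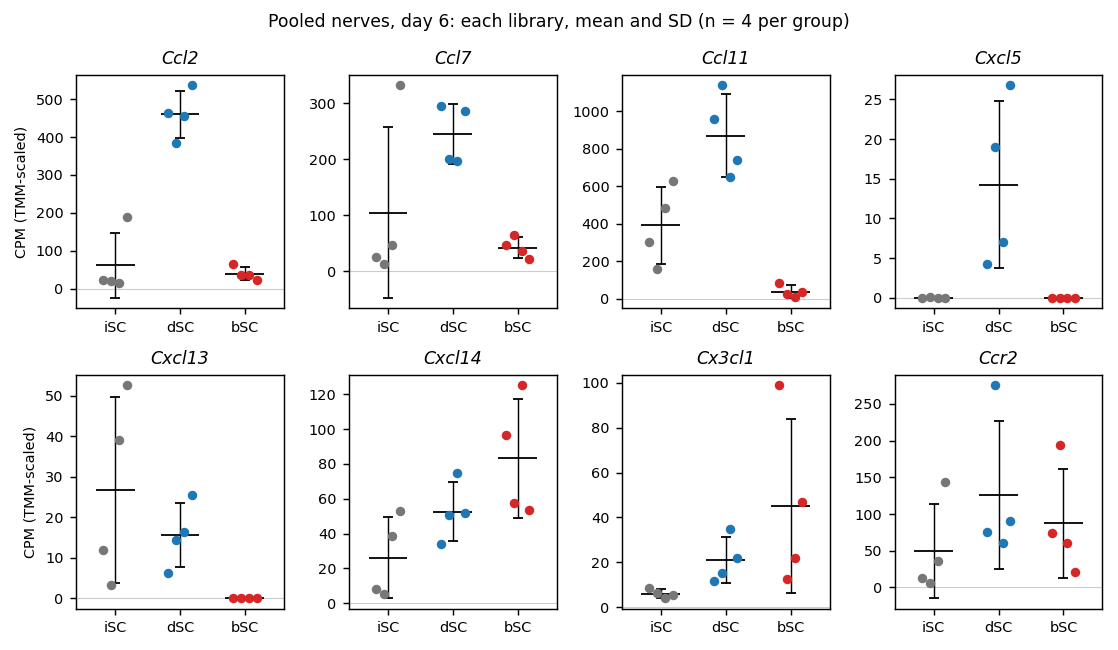
CPM of 8 genes in each pooled-nerve library (points; grey iSC, blue dSC, red bSC) with the mean (line) and SD (bars) of 4 libraries per group, on linear axes that differ between panels. The dSC pools stand alone for Ccl2 (385 to 537 CPM) and Cxcl5 (4.2 to 26.8 CPM), the bSC pools lie lowest for Ccl11 and at 0 for Cxcl13, and 1 intact pool (pool 5) is far above the other 3 for Ccl2 and Ccl7.

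Of the Cxcr2 ligands that draw neutrophils, Cxcl5 was read almost only in dSCs. It was at 4.2, 19, 7.08 and 26.8 CPM in dSC pools and at 0 in all 4 bSC pools, and intact pools held 1 read in all. Against a floor of 3 counts per library, it was at least 76-fold lower in bSCs than in dSCs (adjusted p = 0.0115). The ratio of dSCs to iSCs was 841, with an exact 95% counting interval of 150 to 33241 that covers counting error only, since PCR copies are not independent molecules (adjusted p = 0.0137). With the pools as a block, Cxcl5 was not called in either comparison (adjusted p = 0.0792 and 0.145), nor among libraries deposited as lane pairs (0.0553 and 0.0998). Against iSCs the call was also lost without dSC pool 5 or intact pool 1, 2 or 4 (adjusted p = 0.0528 to 0.0629). The neutrophil marker sum was 1.93 to 14.3 CPM in intact, 33.8 to 46.1 CPM in dSC and 8.85 to 27.6 CPM in bSC pools. Only 2 of the 8 markers passed the filter on low counts in the pools. Of these, Csf3r alone was called, higher in dSC and bSC pools than in iSCs (4.35 ± 0.64 and 3.42 ± 0.61, adjusted p = 0.00199 and 0.00258). S100a9, Camp, Ngp, Ltf and Retnlg had no read in any bSC pool, and Camp, Ngp and Ltf none in any dSC pool. The part of neutrophil RNA in the Cxcl5 differences was not tested. Cxcl1 was lower in every bSC pool (0 to 2.8 CPM) than in every intact pool (3.71 to 29.6 CPM), with dSC pools between 0 and 33.7 CPM, and did not pass (adjusted p = 0.144). Cxcl2 was at 0 to 18.8 CPM and overlapped between all groups. Cxcr2, their receptor, was at 0.314 to 7.34 CPM over the 12 pools.

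Cxcl13, the B cell attractant that binds Cxcr5, was absent from the counts of the bridge pools. Intact pools had 11.8, 3.35, 39 and 52.5 CPM and dSC pools 6.11, 14.4, 16.4 and 25.5 CPM, while all 4 bSC pools had no read. Cxcl13 was at least 142-fold lower in bSCs than in iSCs and at least 83-fold lower than in dSCs (adjusted p = 8.71e-04 and 0.00482), against the floor of 3 counts per library, and these calls held under every alternative. Cxcr5 itself did not exceed 1.68 CPM in any pool.

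Cx3cl1 (fractalkine, a membrane-bound ligand that can be shed) was the 1 gene called higher in bSC pools than in intact pools. It was at 8.8, 6.2, 4.08 and 5.48 CPM in intact pools, 11.6, 15.4, 35 and 22.1 CPM in dSC pools and 98.8, 12.5, 21.8 and 47 CPM in bSC pools. Intact libraries lay below both injured groups, which overlapped. The log2 fold change of bSCs against iSCs was 2.87 ± 0.67 (adjusted p = 0.0119), but 2.45 ± 0.84 with the pools as a block (adjusted p = 0.123) and 2.86 among libraries deposited as lane pairs (adjusted p = 0.0959). In single nerves of days 4 to 10 the same contrast was 0.56 ± 0.74 (adjusted p = 0.732), with overlapping libraries (mean of 38.5 CPM in bSCs and 25.3 CPM in iSCs). Its receptor Cx3cr1, a marker of macrophages and monocytes, had a mean of 174 ± 130 CPM (SD, n = 4) in bSC pools, 42.7 ± 21 CPM in dSC pools and 17.3 ± 32.6 CPM in intact pools and was not called (adjusted p = 0.134 for bSCs against iSCs).

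Cxcl12, the ligand of Cxcr4 that retains progenitor cells in many tissues, was present throughout, with a mean of 273 ± 203 CPM in iSC, 209 ± 40.2 CPM in dSC and 157 ± 88.5 CPM in bSC pools, differences within the spread (adjusted p = 0.299 to 0.812). Cxcl14 had means of 26.3 ± 23.3, 52.6 ± 16.8 and 83 ± 33.8 CPM in the same order. Its bSC and iSC pools did not overlap, but the test did not pass (1.66 ± 0.63, adjusted p = 0.0948). Cxcl16, a membrane-bound ligand and scavenger receptor, was at 61.6 to 143 CPM in dSC and 1.78 to 54.8 CPM in intact pools (adjusted p = 0.132). The interferon-induced ligands Cxcl9, Cxcl10 and Cxcl11 overlapped between bSC and dSC pools, with Cxcl10 at 157 CPM in intact pool 5 and 2.57 to 5.53 CPM in the other intact pools.

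Among the receptors, Ccr2 was at 60.6 to 194 CPM in bSC pools 1, 2 and 3 and 20.9 CPM in pool 5, 61.2 to 275 CPM in dSC pools and 5.94 to 144 CPM in intact pools. Ccr1 was at 29.7 to 109 CPM in dSC pools, above every intact pool (0 to 14.4 CPM). In dSCs against iSCs, Ccr2 and Ccr1 did not pass (adjusted p = 0.546 and 0.119). Cxcr4 did not exceed 8.78 CPM in any pool.

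The counts against intact nerve turned on intact pool 5. It had 189 CPM of Ccl2, 669 CPM of Ccl6, 332 CPM of Ccl7, 144 CPM of Ccl8 and 144 CPM of Ccr2, each above the other intact pools, alongside the macrophage sum of 6435 CPM and a mast cell sum (5 genes) of 1249 CPM, the highest of any library. Without it, 10 genes were higher in dSCs than in iSCs, where 4.22% of all genes were (among them Ccl2, Ccl6, Ccl7, Ccl8, Ccl9, Cx3cr1, Cxcl10, Cxcl16 and Cxcl5), and in bSCs against iSCs 8 were higher, with 7.94% of all genes (among them Ccl2, Ccl8, Cx3cl1, Cx3cr1, Cxcl10, Cxcl14 and Cxcl16) and 2 lower, with 6.76% of all genes (Ccl11 and Cxcl13). Since pool 5 was picked out for its high levels of these same genes, leaving it out favours calls of a rise. The counts without it therefore add no support for a rise. The part of macrophage RNA in these differences was not tested.

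The single-nerve libraries, from other mice, gave the same comparison of regions over days 4 to 10. There, 24 of 38 genes had a negative log2 fold change of bSCs against dSCs, with a median of -0.40 next to -0.03 over all 15519 genes tested. Of the 38, 1 was called lower (0.103% of all genes), and 0 were called higher, as among all genes tested. The called gene was Ccl11, at a lowest, median and highest of 22.4, 56.1 and 439 CPM in 12 bSC libraries and 30.5, 431 and 1333 CPM in 12 dSC libraries. Its log2 fold change was -2.34 ± 0.43 (adjusted p = 0.0232), and -2.39 ± 0.47 without the alike pair of animal 19 (adjusted p = 0.0394). In the 10 animals with both regions, with the animal as a block, it was -2.80 ± 0.59 and not called (adjusted p = 0.142), and -3.13 ± 0.57 without animal 19 (adjusted p = 0.0435), where Ccl2 was called too (-2.65 ± 0.48, adjusted p = 0.0435), with 0.161% of all genes lower. The Ccl11 call was lost without the bSC library of day 4, replicate 2, that of day 8, replicate 0, or the dSC library of day 10, replicate 3 (adjusted p = 0.0519 to 0.0618). Without the bSC library of day 8, replicate 2, 4 genes were called lower, next to 0.599% of all genes: Ccl11 (-2.96 ± 0.40, adjusted p = 4.44e-04), Ccl2 (-2.64 ± 0.59, 0.0289), Cxcl1 (-5.04 ± 0.97, 0.00824) and Cxcl2 (-6.19 ± 1.28, 0.015). That library was picked out for its likeness to dSCs, so leaving it out favours a difference between regions, and these calls add no support. Of the 32 genes tested in both experiments, which share no library, 19 were lower in bSCs in both, 6 were higher in both (Ccl25, Cx3cl1, Cx3cr1, Cxcl9, Cxcl10 and Cxcl14) and 7 differed in sign.

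**Figure D4:**
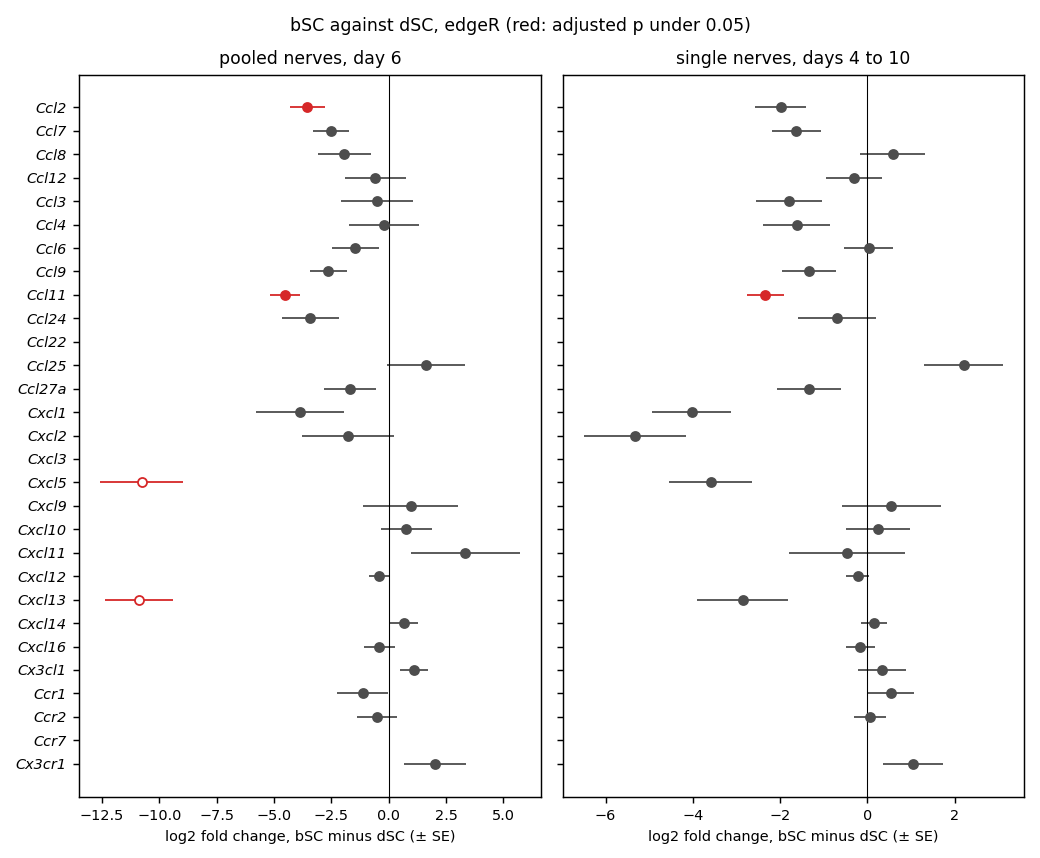
Log2 fold change of bSCs minus dSCs (edgeR, bars are SE; the x axes differ) for the named genes in pooled nerves (left) and in single nerves of days 4 to 10 (right), in red where the adjusted p was under 0.05. Open symbols (Cxcl5 and Cxcl13, pooled) mark genes with no read in any bSC pool, whose fitted value depends on the prior count. Ccl22, Cxcl3 and Ccr7 are left out, as they were not tested in the pools and had no usable SE in single nerves. Ccl11 is red in both panels.

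By day, the region difference of Ccl11 was within the spread at day 4 and wide at day 6. At day 4, dSC libraries had 197, 328 and 251 CPM and bSC libraries 294, 315 and 83.5 CPM. The values of 328 and 315 CPM belong to the alike pair of animal 19, which could hardly show a difference between regions. The remaining day 4 libraries overlapped as well. Day 6 gave 399, 463 and 276 CPM in dSCs and 22.4, 25.9 and 24.2 CPM in bSCs. The groups thus overlapped at day 4 and were far apart at day 6. At day 8 the dSC libraries had 547, 610 and 643 CPM and the bSC libraries 41.9, 24.8 and 439 CPM, the last being replicate 2. Day 10 gave 30.5, 630 and 1333 CPM in dSCs and 65.1, 75.5 and 47.1 CPM in bSCs, with 1 dSC library below every bSC library. No gene passed the test of an interaction between region and day, in which 0 of 15519 genes passed in edgeR and 6 in DESeq2, none of them a chemokine gene, and 488 genes, 3 of them chemokine genes, had an unadjusted p under 0.05.

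Cxcl1 and Cxcl2, whose promoter sequences are printed above, stood just outside the threshold. Cxcl1 ranged from 2.18 to 116 CPM in dSCs of days 4 to 10 (median 49.3) and from 0 to 58.3 CPM in bSCs (median 1.77), and Cxcl2 from 0 to 79 CPM (median 18.2) and from 0 to 47.1 CPM (median 0.0269). The bSC libraries with the highest level of each were those of day 4, animal 19 (58.3 and 47.1 CPM), and of day 8, replicate 2 (44 and 36.6 CPM), and no other bSC library exceeded 7.97 CPM of Cxcl1 or 1.34 CPM of Cxcl2. The log2 fold changes were -4.03 ± 0.90 and -5.33 ± 1.17 (adjusted p = 0.0558 for both). Without both libraries of animal 19, Cxcl2 passed (-7.08 ± 1.28, adjusted p = 0.0276), so that 2 genes were called lower (0.0935% of all genes), and Cxcl1 did not (adjusted p = 0.0565), and DESeq2 called both. Ccl2 and Cxcl5, called in the pools, had -1.99 ± 0.59 and -3.59 ± 0.95 here (adjusted p = 0.177 and 0.116), and DESeq2 called both, and Ccl7, lower in bSCs (0.0044, 0.00217 and 0.0292). Cxcl13, also called in the pools, was called here by neither edgeR nor DESeq2. Its libraries overlapped, at 0 to 29 CPM (median 3.78) in dSCs and 0 to 9.53 CPM (median 0.0322) in bSCs.

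**Figure D5:**
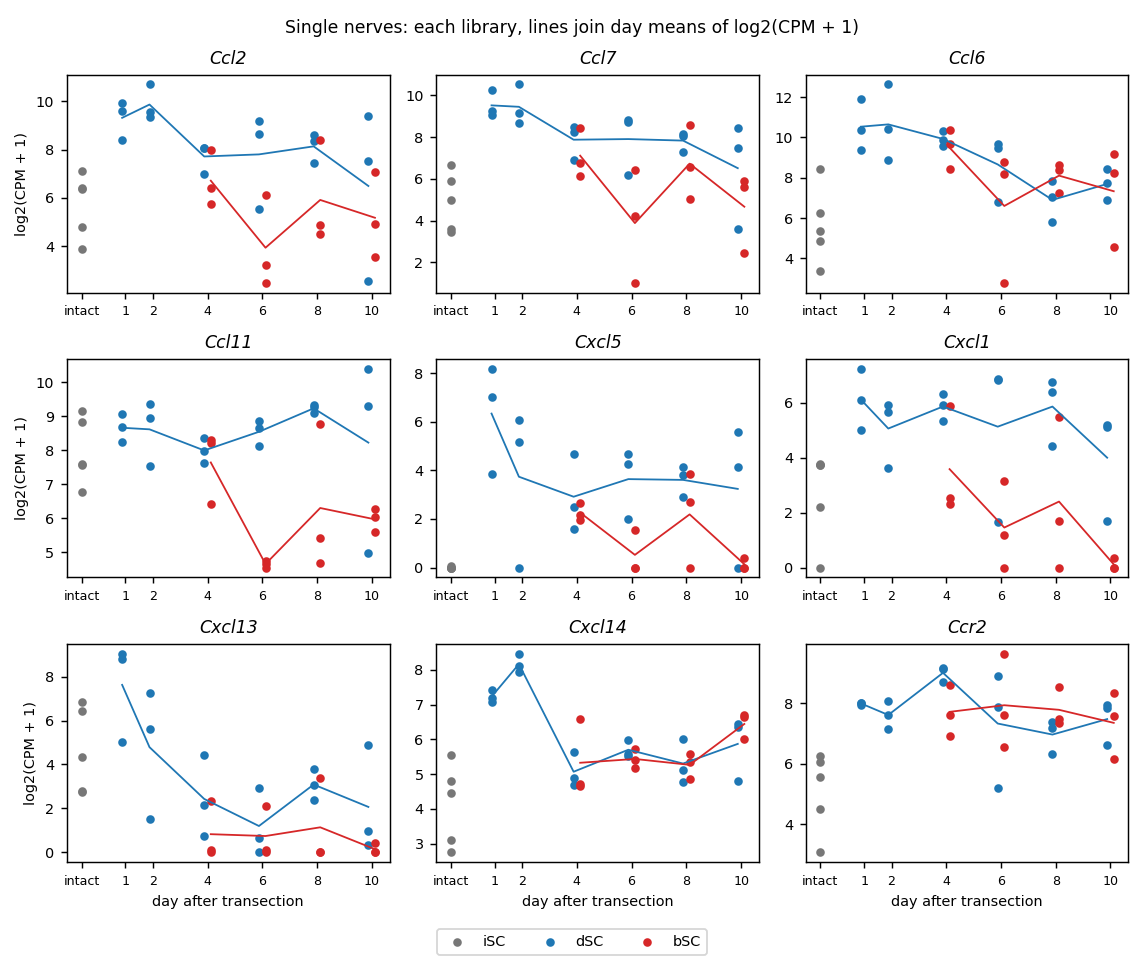
Log2(CPM + 1) of 9 genes in every single-nerve library (points; grey iSC, blue dSC, red bSC) against the day after transection, with intact nerves at the left and lines joining the day means. Cxcl14 and Ccl7 of dSCs are highest on days 1 and 2, Ccl11 of bSCs lies below that of dSCs at day 6, and Cxcl13 of dSCs is highest on day 1.

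Days 1 and 2 were sampled in the distal stump only. In dSCs of days 1 and 2 against iSCs, 6 of 38 genes were called and all rose, among them Ccl6, Ccl7, Ccl12, Cxcl5 and Cxcl14. This was 15.8% of the genes, next to 0.477% of all genes tested, and 0 were lower (0.2% of all genes). The median log2 fold change was 2.94 (2.44 with the 6 genes without a read in iSCs at their bound), against -0.09 over all genes. Without overlap, 9 of 38 genes were higher than in every intact library, against 1.29% of all genes, and 0 were lower, against 0.767%. The summed macrophage markers were higher in the same libraries (3328 to 6876 against 305 to 1392 CPM).

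Cxcl14, a ligand of epithelia and stroma, was highest in early dSCs. Its level was 7.53, 5.74, 20.9, 26.9 and 46.1 CPM in intact nerves, 169, 145 and 134 CPM in dSCs of day 1 and 274, 242 and 352 CPM of day 2. In dSCs of days 4 to 10 it was 24.6 to 85.5 CPM (median 46) and in bSCs 24.4 to 102 CPM (median 44.4). All 6 early libraries were above every other single-nerve library. Cxcl14 rose by a log2 fold change of 3.27 ± 0.50 against iSCs (adjusted p = 7.40e-04) and was 2.16 ± 0.35 above dSCs of days 4 to 10 (adjusted p = 0.00118), the second call holding under every alternative and without each library in turn. The first held without each library too and was lost in a fit of only the groups compared (adjusted p = 0.0837).

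Ccl7 was at 531, 604 and 1229 CPM on day 1 and 1469, 411 and 566 CPM on day 2, against 9.98 to 100 CPM in intact nerves (4.24 ± 0.95, adjusted p = 0.0339). Ccl2 was at 336, 779 and 978 CPM and 1657, 656 and 741 CPM on the same days and 13.7 to 139 CPM in intact nerves, without overlap, and missed the threshold (3.61 ± 0.97, adjusted p = 0.083). In dSCs of days 4 to 10 the medians were 274 CPM (Ccl7) and 269 CPM (Ccl2), and neither passed against the early dSCs. Ccl12 was at 9.66 to 174 CPM on days 1 and 2 and at most 2.91 CPM in intact nerves (5.76 ± 1.20, adjusted p = 0.022). Ccl6 was at 477 to 6305 CPM on days 1 and 2 and 9.35 to 345 CPM in intact nerves (4.52 ± 0.99, adjusted p = 0.028), its highest library being the day 2 library with 10306 genes detected. Without the 4 libraries of few genes, the calls of Ccl6, Ccl7, Ccl12 and Cxcl5 were among those lost and those of Ccl9 and Ccr1 appeared, so that 3 genes were called, with 0.206% of all genes. Single libraries ended calls as well: Ccl12 was lost without dSC day 1, replicate 2, or intact replicate 0 or 4 (adjusted p = 0.0504 to 0.0754), Ccl6 without dSC day 2, replicate 0, or intact replicate 0, 3, 4 or 5 (0.055 to 0.0794) and Ccl7 without dSC day 1, replicate 2, dSC day 2, replicate 0, or intact replicate 0, 3 or 4 (0.0538 to 0.0841). Cxcl5 and Cxcl14 were kept without each of the 11.

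Cxcl5 reached 13.2, 286 and 128 CPM on day 1 and 0, 34.4 and 65.8 CPM on day 2, with 1 read in all over the 5 intact nerves. Later dSC libraries had 0 to 46.4 CPM (median 14.7), and bSC libraries 0 to 13.4 CPM (median 1.14). The ratio to iSCs was 6506 on days 1 and 2 (exact 95% counting interval 1167 to 257021, adjusted p = 0.00834) and 1077 on days 4 to 10 (193 to 42545, adjusted p = 0.00609). The second call held under every alternative. The neutrophil marker sum was 0.255 to 14.7 CPM in intact nerves, 12.3 to 104 CPM in early and 4.04 to 70.9 CPM in later dSCs. Of the 5 markers tested, Csf3r was called higher in both (adjusted p = 0.0473 and 0.00473). Mpo was called lower in later dSCs (mean of 0.168 CPM against 3.04 CPM in intact nerves, -6.27 ± 1.72, adjusted p = 0.0369). The part of neutrophil RNA in the Cxcl5 levels was not tested here either.

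Against dSCs of days 4 to 10, the early dSCs had 4 genes higher, 10.5% of those tested next to 1.77% of all genes, and 0 lower (0.464% of all genes). Beside Cxcl14 these were Cxcl13 (1.84 to 528 CPM, median 99.7, against 0 to 29 CPM, median 3.78; 4.56 ± 1.16, adjusted p = 0.0344), Ccl6 (2.66 ± 0.66, adjusted p = 0.0323) and Cxcl3, which had a read in all 6 early libraries (0.0635 to 24.9 CPM) and in 2 of 12 later ones (adjusted p = 0.0364). Without the 4 libraries of few genes, Cxcl14 alone was called, with 0.137% of all genes. Cxcl13, Ccl6 and Cxcl3 were lost without each of 12, 10 and 14 of the 18 libraries (adjusted p up to 0.204, 0.276 and 0.207). The neutrophil markers S100a8 and S100a9 were called higher in the same comparison, their list summing to 12.3 to 104 CPM early and 4.04 to 70.9 CPM later.

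In dSCs of days 4 to 10, 5 genes were higher than in iSCs (13.2%, next to 1.84% of all genes) and 1 was lower (3.49% of all genes). Ccr2, the receptor of Ccl2, Ccl7 and Ccl12, had 75.7, 66.5, 21.8, 7.48 and 46 CPM in intact nerves, 35.8 to 576 CPM (median 233) in dSCs of these days and 70.3 to 797 CPM (median 192) in bSCs. It rose in dSCs by 2.46 ± 0.56 and in bSCs by 2.52 ± 0.57 on the log2 scale (adjusted p = 0.00963 and 0.00608), and both calls held under every alternative. Between bSCs and dSCs its level did not pass a test (0.06 ± 0.37, adjusted p = 1). Ccl3, Ccl4 and Ccl12 rose as well: Ccl4 was at 0 to 2.11 CPM in intact nerves and 0.47 to 77.2 CPM in dSCs (5.50 ± 1.37, adjusted p = 0.0179). The gene called lower was Ccl25, a sparse transcript (median 7.55 CPM in intact nerves and 1.95 CPM in dSCs), a call lost without each of 16 of the 17 libraries, all but intact replicate 4 (adjusted p = 0.0531 to 0.13), and without animal 19. The Ccl12 call was lost without intact replicate 0, 1 or 4 (0.0619 to 0.0664) and that of Ccl3 without intact replicate 0 or 1 (0.0566 and 0.0611), while Ccl4 was kept without each library. Without the 4 libraries of few genes, Ccl3, Ccl4 and Ccl12 were not called (adjusted p = 0.0547, 0.0841 and 0.0911).

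In bSCs of days 4 to 10, 7 genes were higher than in iSCs (18.4%, next to 2.58% of all genes) and 4 were lower (10.5%, next to 6.75%). Beside Ccr2, those higher included Cx3cr1 (30.4 to 451 CPM against 0 to 22.6 CPM, 4.00 ± 1.14, adjusted p = 0.0251), Ccl8 (2.74 to 1668 CPM against 1.17 to 45.4 CPM, 4.66 ± 1.29, adjusted p = 0.0214), Ccl4, Ccl12 and Cxcl5. Cx3cr1 did not overlap between the groups. Ccr2 and Cx3cr1 are used as markers of macrophages and monocytes, whose list rose in 11 of 14 genes in this comparison and in 11 of 14 in dSCs of the same days. Those lower were Ccl11 (-1.78 ± 0.51, adjusted p = 0.0244), Cxcl12 (-1.25 ± 0.33, adjusted p = 0.016), Cxcl13 (-5.71 ± 1.25, adjusted p = 0.00505) and Ccl27a (-3.30 ± 0.90, adjusted p = 0.0187). Cxcl13 had a read in every intact nerve (5.7 to 114 CPM) and in 6 of 12 bSC libraries (0 to 9.53 CPM). Cxcl12 was at 427, 574, 430, 922 and 730 CPM in intact nerves and 48.6 to 564 CPM (median 233) in bSCs, and its level in dSCs was also lower without passing (-1.02 ± 0.33, adjusted p = 0.062). The summed endothelial markers (8 genes) were 1562 to 4403 CPM in intact nerves, 337 to 2144 CPM in dSCs of days 4 to 10 and 316 to 3520 CPM in bSCs. Of the 8, only Cldn5 was called in bSCs against iSCs, and it was lower (-3.76 ± 0.50, adjusted p = 1.85e-05). The part of endothelial RNA in the Cxcl12 difference was not tested. Without both libraries of animal 19, 4 genes were higher (2.15% of all genes) and 6 lower (5.07%), with Ccl4, Ccl12 and Cxcl5 lost and Cxcl2 and Cxcl17 gained among those lower. Ccr2, Cx3cr1 and Cxcl13 were kept without each library, but Cx3cr1 was not called with only the groups compared (adjusted p = 0.0864), nor Cxcl13 without the 4 libraries of few genes (0.107). The latter also ended the calls of Ccl11, Ccl12, Ccl27a, Ccl4 and Cxcl5 (adjusted p = 0.12, 0.0821, 0.105, 0.166 and 0.0977). Intact nerves decided several of the others: Ccl11 was lost without intact replicate 1 or 5 (adjusted p = 0.113 and 0.0694), Ccl12 without 0, 1 or 4 (0.0566 to 0.0677), Ccl27a without 1 (0.112), Cxcl12 without 4 (0.0668) and Ccl8 without 0 or 4 (up to 0.0546). Ccl4 was lost without each of 15 and Cxcl5 without each of 12 of the 17 libraries (adjusted p up to 0.104 and 1).

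The remaining named genes were sparse or flat. Ccl22 and Ccr7, a dendritic cell ligand and receptor, were each seen above 10 CPM in 1 library, the dSC library of day 4, replicate 2 (37.4 and 33.6 CPM). Cxcl9, Cxcl10 and Cxcl11 were at a median of 8.51, 9.21 and 0 CPM in bSCs and 1.13, 9.78 and 0.204 CPM in dSCs of days 4 to 10 and passed in no comparison, Cxcl10 reaching 228 CPM in the dSC library of day 1, replicate 2. The 8 tested genes below the level for naming had group means of at most 9.55 CPM and none was called by edgeR in these comparisons. DESeq2 called 1 of them, Cxcr4, higher in bSC than in iSC pools.

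Genes that act beside the chemokines were read from lists. Of 10 tested related genes outside the symbol rule (8 in the pools), Rarres2, which encodes chemerin, a chemoattractant of another receptor, fell in dSCs and in bSCs against iSCs (pooled means of 644 ± 113, 227 ± 40.3 and 61.6 ± 33.7 CPM in iSC, dSC and bSC pools, adjusted p = 0.0263 and 1.74e-04) and was lower in bSCs than dSCs (adjusted p = 0.0117). Ackr3, the atypical scavenger receptor of Cxcl12 once named Cxcr7, fell in bSCs (149 ± 86.7 to 18.9 ± 11.9 CPM, adjusted p = 0.0138), and in single nerves it fell in bSCs and dSCs (adjusted p = 3.87e-04 and 0.0338). Ackr2, a scavenger of inflammatory CC ligands, was called lower in bSCs in both experiments (adjusted p = 0.03 and 0.00316), and Ccrl2 rose in dSC pools (8.35 ± 9.52 to 77.2 ± 56 CPM, adjusted p = 0.0397). The platelet chemokine genes Ppbp and Pf4 were higher on days 1 and 2 than on days 4 to 10 (adjusted p = 0.0105 and 0.0364). Of the 8 in pools, 1 was higher and 1 lower in dSCs than iSCs (2.63% and 2.69% of all genes). In bSC pools 3 were lower than in iSCs and 1 than in dSCs (7.46% and 3.11%). Of the 10 in single nerves, 2 were lower in later dSCs and 3 in bSCs than in iSCs (3.49% and 6.75%). In early against later dSCs 3 were higher (1.77%).

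Of the genes that signal below the receptors, 1 of 22 tested rose in dSC pools and in bSC pools (next to 2.63% and 7.24% of all genes), Rgs16, a brake on G proteins (10.5 ± 1.01 CPM in iSCs, 95.9 ± 48.5 in dSCs and 149 ± 73.4 in bSCs, adjusted p = 0.00229 and 4.53e-04), and Elmo1 fell in bSC pools (adjusted p = 0.0428; 7.46% of all genes). In single nerves 6 of 23 rose in dSCs of days 4 to 10 and 6 of 23 in bSCs (1.84% and 2.58% of all genes), among them Prex1, a Rac activator (3.94 ± 0.95 and 3.60 ± 0.93, adjusted p = 0.0137 and 0.0143), Rgs1 in dSCs (6.39 ± 1.68, adjusted p = 0.0237), Dock2 in bSCs (3.54 ± 1.03, adjusted p = 0.0278) and Plcb2, which had no read in intact nerves. On days 1 and 2, Rgs2 alone of 23 rose (2.22 ± 0.47, adjusted p = 0.0243), next to 0.477% of all genes. Leukocytes use these genes widely, and the part of macrophage RNA in these changes was not tested. Of the cytokines, receptors and NF-κB factors that induce chemokine genes, 1 of 26 rose in dSC pools (Tnfrsf1a, adjusted p = 0.0364) and 1 of 26 fell in bSC pools (Irf1, adjusted p = 0.00858), next to 2.63% and 7.46% of all genes. In single nerves, where 27 were tested, 1 rose in dSCs of days 4 to 10 and in bSCs, next to 1.84% and 2.58% of all genes. It was Tlr2 (adjusted p = 0.0436 and 0.0136). In bSCs 2 of 27 fell, next to 6.75% of all genes, Nfkbia and Ifngr1 (adjusted p = 0.0247 and 0.0462). Between bSCs and dSCs, Rarres2 in the pools was the only gene called in these 3 lists.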

How the data were processed

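SCs of tdTom SC mice were sorted for tdTomato and sequenced with the Smart-seq2 protocol. The authors mapped the reads to mm9 (TopHat2 2.0.11) and counted them per gene (HTSeq); the deposited values are these raw counts, not normalized; HTSeq's strand setting is not given in the sources used here. Lanes of 1 library were summed. Smart-seq2 does not mark strand and amplifies by PCR, so that reads of overlapping genes cannot be told apart and counting intervals cover counting error only. The rat libraries of the series were not analysed here.

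Counts on genes numbered 11435463 to 22617054 in pooled and 9240883 to 22426128 in single-nerve libraries. Tests used R 4.3.3 and edgeR 4.0.16 (filterByExpr, TMM, quasi-likelihood, Benjamini-Hochberg adjustment over all genes tested), with 1 fit per experiment; the tests were first checked on simulated counts. Described by name were genes with a mean of at least 10 CPM in any group or an adjusted p under 0.05 in any comparison. From the other lists, at most 3 called genes per list and comparison could be named. Genes and lists were chosen with earlier results of these data known. Nothing in the labels says that mice of 1 group came from separate litters or sorts.

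Regions of a pool or nerve with the same animal in the labels were paired. The correlation of their deviations from group means averaged -0.0143 in the pools (10 pairs) and 0.146 in single nerves (11 pairs). For the block, 10 pairs were used, since 1 bSC library of day 10 has a title and an animal label that disagree. Other settings tried were no filter, DESeq2 1.42.0 as the test, DESeq2's scaling within edgeR, the study's filter (at least 100 counts in at least 85% of libraries), only the groups compared, blocks, a lane covariate, only libraries deposited as lane pairs, and each library left out. Those without animal 19 and without the 4 libraries with the fewest genes were chosen after seeing the data. Positions are from GENCODE M1. Some genes of the lists are not reported here.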

Additional observations from a re-analysis of the deposited data

Results flagged for a closer look

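Dixon's test for a single outlying library was applied to the log2 levels of the named genes in groups of 4 or 5 libraries. Of 110 gene and group combinations, 16 held such a library; chance gives about 1 in 20. Most rest on sparse genes.

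In intact pools, Cxcl11 was at 28.9 CPM in pool 5 against 7.16 to 8.85 CPM in the others, and 1.02 CPM of Ccl22 and 0.0508 CPM of Cxcl5 in pool 2 stood against 0 elsewhere. In dSC pools, Cx3cr1 was low in pool 1 (11.6 CPM, others 49.7 to 58 CPM), Cxcl12 was high in pool 5 (269 CPM, others 184 to 195 CPM), and pool 3 alone had reads of Ccl22 (3.98 CPM) and Cxcl11 (1.55 CPM). In bSC pools, Ccl3 was at 0 CPM in pool 5 (others 19.7 to 25.6 CPM), Ccl25 was at 0 CPM in pool 3 (others 6 to 13 CPM), Cxcl1 was highest in pool 5 (2.8 CPM, others at most 0.0859 CPM), Cxcl11 was read in pool 3 alone (16.1 CPM) and Cxcl3 in pool 2 alone (3.43 CPM). Among intact single nerves, replicate 1, the library with the fewest genes, was low for Cx3cl1 (2.33 CPM, others 21.8 to 50.1 CPM) and had 0 CPM of Cxcl1 (others 3.63 to 12.7 CPM), while replicate 4 was high for Cxcl11 (5.19 CPM, others at most 0.0528 CPM) and alone had a read of Cxcl5 (0.0509 CPM).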

How the results depend on the processing

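Of 37 calls of single genes, 0 changed direction, 16 kept their side of the threshold without each library in turn, and 8 did so under every alternative run: Ccl11 and Cxcl13 in bSC pools against dSC and iSC pools, Ccr2 in dSCs and bSCs of days 4 to 10, Cxcl5 in dSCs of days 4 to 10 and Cxcl14 in early against later dSCs. Counts of called genes moved more. For dSCs against iSCs in pools (2), they were 6 in DESeq2, 5 with a lane covariate, 7 in libraries deposited as lane pairs only, 1 with only the groups compared and 0 with the pool as a block, where 10.1%, 5.26%, 5%, 6.64% and 2.09% of all genes were called, against 5.32%. For bSCs against iSCs (3) they were 7 in DESeq2 and 8 in lane pairs only (22.6% and 8.38% of all genes, against 14.7%), and for bSCs against dSCs (4) 7 in DESeq2 (14.1%, against 5.43%). In single nerves, DESeq2 gave 12 for early dSCs against iSCs (6), 14 for later dSCs (6) and 6 for bSCs against dSCs (1), with 3.61%, 10.6% and 3.76% of all genes, against 0.677%, 5.32% and 0.103%. Only the groups compared gave 0 for early dSCs, 2 for bSCs against iSCs (11) and 7 for early against later dSCs (4), with 0.0138%, 3.76% and 3.34% of all genes. The study's filter, under which 14 chemokine genes were tested in place of 38, gave 6 and 2 for the last pair of comparisons. There 10.1% and 6.62% of all genes were called, against 9.34% and 2.24%. For bSCs against dSCs, DESeq2 size factors and no filter gave 3 each (0.161% and 0.163% of all genes). The animal as a block gave 0, as did the same paired libraries without an animal term, with 0% of all genes in both. The block without animal 19 gave 2 (0.198%), and leaving out both its libraries 2 (0.0935%). Without the 4 libraries with the fewest genes the counts were 3 for early dSCs against iSCs, 3 for bSCs against dSCs and 1 for early against later dSCs. The shares of all genes called there were 0.219%, 0.575% and 0.275%.

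Leaving out each library in turn gave 0 to 10 (dSCs against iSCs) and 3 to 10 (bSCs against iSCs) in pools, both highest without intact pool 5, and 3 to 4 for bSCs against dSCs. In single nerves it gave 2 to 6 for early dSCs against iSCs, 3 to 7 for later dSCs, 6 to 12 for bSCs, 0 to 4 for bSCs against dSCs (4 without day 8, replicate 2) and 1 to 4 for early against later dSCs, and 0 for the interaction. Of these fits, the share of all genes is given above only for those without intact pool 5 and without day 8, replicate 2. The ranges are therefore not read as results about the chemokine genes. The causes were not tested. The replicate block changed no other call than those given beside the results. DESeq2 size factors moved the median of all genes by at most 0.07 (log2). At these depths, levels near 3 counts per library cannot be told from 0.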
